A study of Mus musculus with 12 samples.

Results

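Adult heart was compared with newborn heart for 5-hydroxymethylcytosine (5hmC) over gene bodies. The libraries were chosen by their labels alone: 2 libraries of whole heart from 8-week-old C57BL6/j mice (W8) and 2 of whole heart from neonatal C57BL6/j mice of day 1 to 2 (P1), 4 of the 12 libraries of the series. Hearts were dissected and snap frozen. Their sheared DNA was glucosylated with an azide-bearing glucose at 5hmC, coupled to biotin and pulled down on streptavidin before sequencing (hMe-Seal), so every value is a level of captured 5hmC relative to the rest of its own library. The W8 heart libraries were read as single ends of 50 bp and the P1 heart libraries as paired ends of 75 bp, so that read format and age cannot be told apart in this comparison. An embryonic day 14 heart library (E14, 1 library, single ends of 50 bp, like W8) served as a check of direction only, and W8 and P1 livers (2 libraries each, same strain and same read formats by age) gave the other tissue. The estimate of the spread also used an E14 liver library and 2 libraries of EB5 mouse embryonic stem cells (129/Ola), which enter no comparison here. The labels give neither the sex of the mice nor whether the 2 libraries of a group came from different animals, so the spread between them may be technical. In whole tissue, a lower level per cell and fewer cells of a type cannot be told apart.

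5hmC is made from 5-methylcytosine by the TET dioxygenases and is known to be enriched over the bodies of transcribed genes in differentiated tissues. After birth the mouse heart muscle cell is known to leave the cell cycle, to move from glucose toward fatty acids as fuel, to change isoforms of its sarcomere proteins (Myh7 toward Myh6, Tnni1 toward Tnni3) and to build intercalated discs and calcium-release units. The genes of these programmes, and markers of other cells, were read as 26 lists. The lists name 593 entries, of which 529 were in the tables and 346 had a body of 20 kb or more that was tested. The 183 shorter members were read only in a fit of all lengths, where 0 passed.

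The tables hold 13581 genes, of which 7753 had a body of 20 kb or more that passed the filter on low values. The 2 W8 heart libraries differ in depth. W8 heart replicate 1 held 3395160 reads over gene bodies with a median of 217.5 per body of 20 kb or more, and W8 heart replicate 2 held 142778 with a median of 10.03, against 767590 (median 50) and 611469 (median 40) in the P1 heart libraries. Counting alone gives the median body a coefficient of variation of 6.78% in W8 heart replicate 1 and 31.6% in W8 heart replicate 2, against 14.1% and 15.8% in the P1 hearts. W8 heart replicate 2 listed 122 of these bodies at 0.

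The heart label was checked on marker lists. On the log2 scale centred on each library's median, the median of 20 sarcomere genes was 0.95 in W8 heart replicate 1 and 0.26 in W8 heart replicate 2, against 1.02 and 1.00 in the P1 hearts. It was 0.76 in the E14 heart and between -0.14 and 0.15 in the livers. The median of 9 hepatocyte genes was -0.08 and 0.27 in the W8 hearts, against -0.20 and -1.14 in the P1 hearts. On the sarcomere list W8 heart replicate 1 lies near the P1 hearts, and W8 heart replicate 2 carries the heart pattern weakly. Across the 1977 bodies of 100 kb or more, W8 heart replicate 1 correlated with the P1 hearts at r = 0.98. The P1 hearts correlated with each other at 0.985. W8 heart replicate 2 correlated with the P1 livers at 0.914 and 0.916 and with the E14 liver at 0.923. It correlated with W8 heart replicate 1 at 0.872, with the P1 hearts at 0.866 and 0.862, and with the E14 heart at 0.854. With the livers of its own age, the W8 livers, it correlated only at 0.791 and 0.779. These correlations run across genes of 2 libraries at a time and include the depth of each. Whether W8 heart replicate 2 is mislabelled, mixed with other tissue or only of low quality was not tested, and every value over both W8 hearts carries this doubt. Results are therefore given with both W8 hearts and with W8 heart replicate 1 alone.

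**Figure D1:**
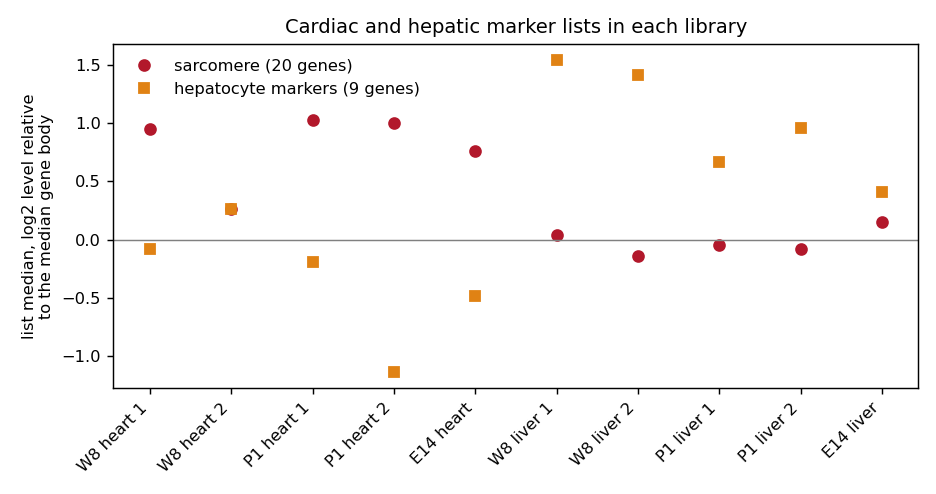
Median level of the sarcomere list (20 genes) and of the hepatocyte list (9 genes), as log2(FPKM + pseudocount) minus the library median, in each heart and liver library. W8 heart replicate 1 sits with the P1 hearts near 1 for the sarcomere list, while W8 heart replicate 2 lies at 0.26, between the hearts and the livers.

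No gene body passed the test for a difference between adult and newborn heart. With limma across all 12 libraries and Benjamini-Hochberg adjustment at 0.05, 0 of 7753 bodies (0%) were higher and 0 (0%) lower in W8 heart, and the lowest adjusted p was 0.244. Leaving out W8 heart replicate 2 also gave 0 calls, with a lowest adjusted p of 0.340. At an unadjusted p under 0.05 there were 1299 bodies (16.8%), of which 732 (9.44%) lay higher and 567 (7.31%) lower in W8 heart; without W8 heart replicate 2 there were 870 (11.2%). The values of single genes in this comparison are descriptions with their errors. Each error comes from a spread per gene shared by all 7 groups, as if W8 heart varied like the others. An alternative fit with limma arrayWeights weighted libraries by their spread. It gave each W8 heart library 0.155, against 0.790 for each P1 heart and 3.42 for each W8 liver. The errors printed here may therefore understate the spread of W8 heart. Counts of list members at an unadjusted p under 0.05 are to be read beside the shares of 9.44% higher and 7.31% lower.

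FPKM values are given as deposited (fragments per kilobase of gene body, scaled to the mapped reads of the library). The median body had 0.572 and 0.553 FPKM in W8 heart, against 0.743 and 0.687 FPKM in P1 heart, a shift of -0.29 on the log2 scale, so every difference was taken after centring each library on its median, and groups are said to overlap or not on that centred scale unless FPKM is named. At the median body, W8 heart replicate 1 lay no farther from the P1 mean, 0.156 on the log2 scale, than the 2 P1 hearts lay from each other, 0.173. Across bodies of 100 kb or more, where counting error is smaller, the SD of its difference was 0.215 and 0.218 from the 2 P1 hearts, against 0.167 between these. The 95th percentile of the distance was 0.504 for W8 heart replicate 1 and 1.33 for W8 heart replicate 2, and the same measure between W8 and P1 liver was 1.03. Only 11 of 7753 bodies (0.142%) were at least 2-fold above the P1 mean in W8 heart replicate 1, and 0 (0%) were at least 2-fold below it. Both W8 hearts lay above both P1 hearts at 1586 bodies (20.5%) and below both at 1408 (18.2%).

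Among the 12 bodies of smallest p in the higher direction, all of which missed the threshold at an adjusted p of 0.244, most had low levels and stand for genes with little known role in heart muscle. Myo3a, which encodes a motor protein with a kinase domain known from hair cells and photoreceptors, had 0.226 and 0.370 FPKM in W8 heart, against 0.0730 and 0.0229 FPKM in P1 heart (chr2:22151130-22473772, mm9, body of 322.643 kb). These values rest on 530 and 39 reads in W8 heart and on 30 and 8 reads in P1 heart. The groups did not overlap, and the fitted W8 minus P1 difference was 1.92 ± 0.27 (log2, SE). The E14 heart had 0.594 FPKM, above every W8 and P1 heart library. In liver Myo3a had 0.116 and 0.0803 FPKM at W8, against 0.0357 and 0.0671 FPKM at P1, so the single-end libraries were higher in both tissues, and the part of the read format in this was not tested.

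Tmem132d, a transmembrane protein gene, had 0.149 and 0.200 FPKM in W8 heart, against 0.0910 and 0.0877 FPKM in P1 heart, a difference of 0.91 ± 0.16. Kcnh8, a voltage-gated potassium channel, had 0.0774 and 0.121 FPKM in W8 heart, against 0.0442 and 0.0416 FPKM in P1 heart. Chat, the enzyme that makes acetylcholine, had 0.208 and 0.220 FPKM in W8 heart, against 0.141 and 0.132 FPKM in P1 heart, a difference of 0.76 ± 0.14. For all of these, both W8 hearts lay above both P1 hearts although the levels stayed below the library median. Cpn1, the catalytic subunit of a plasma carboxypeptidase, was the one of these 12 with the highest levels, at 0.781 and 1.08 FPKM in W8 heart, against 0.445 and 0.620 FPKM in P1 heart. Mmp20, an enamel protease, differed by 1.13 ± 0.20, Gabrp, a GABA receptor subunit, by 0.86 ± 0.17, Ralyl by 0.67 ± 0.13 and Vstm2a by 0.70 ± 0.14. A630033H20Rik on the X chromosome differed by 1.45 ± 0.29 and Fbxw22 by 1.28 ± 0.26. Cyp2b13, one of many near-identical cytochrome P450 genes, rests on 12 and 1 reads in W8 heart, against 0 and 0 reads in P1 heart, and is uncertain.

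The 12 bodies of smallest p in the lower direction had higher levels and included muscle genes, and they too missed the threshold at an adjusted p of 0.244. Asb2, a muscle subunit of a ubiquitin ligase that targets filamins, had 1.14 and 0.933 FPKM in W8 heart, against 2.41 and 2.30 FPKM in P1 heart (chr12:104559352-104592211, mm9). Its mean was 1.04 ± 0.144 FPKM in W8 heart and 2.36 ± 0.0794 FPKM in P1 heart (SD, n = 2 each), and the difference was -0.83 ± 0.12 (log2, SE). Both W8 hearts lay below both P1 hearts, with differences of -0.72 for W8 heart replicate 1 and -0.94 for W8 heart replicate 2 from the P1 mean. The E14 heart had 0.739 FPKM, so Asb2 was highest in newborn heart among the 3 stages.

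Jup encodes plakoglobin, which links desmosomes and adherens junctions of the intercalated disc to the cytoskeleton. It had 1.47 and 0.980 FPKM in W8 heart, against 2.91 and 2.53 FPKM in P1 heart (chr11:100231933-100257063, mm9), a difference of -0.82 ± 0.18 and of -0.57 with W8 heart replicate 1 alone. The semaphorin receptors Plxnb2 and Plxnd1 lay on the same side. Plxnb2 had 1.42 and 1.45 FPKM in W8 heart, against 3.04 and 2.62 FPKM in P1 heart, and Plxnd1 had 1.70 and 1.45 FPKM in W8 heart, against 3.08 and 3.19 FPKM in P1 heart. Their differences were -0.63 ± 0.11 and -0.66 ± 0.13. Zfp385a, a zinc finger protein gene, had 0.517 and 0.514 FPKM in W8 heart, against 1.10 and 1.11 FPKM in P1 heart. Gm12824 had 0.633 and 0.430 FPKM in W8 heart, against 1.30 and 1.21 FPKM in P1 heart (chr4:114081329-114287703, mm9). Tcf25 (-0.87 ± 0.18), Tppp (-0.86 ± 0.19), Snw1 (-0.69 ± 0.15), Plcd3 (-0.65 ± 0.14), Cyb5b (-0.61 ± 0.14) and Hexa (-0.57 ± 0.12) completed the 12.

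**Figure D2:**
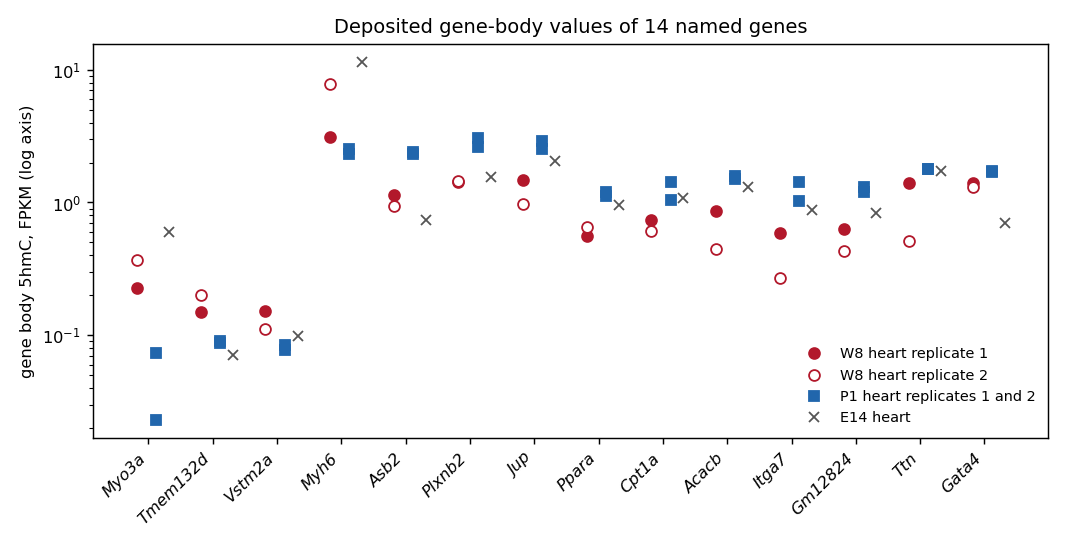
FPKM on a log axis of 14 gene bodies in W8 heart replicate 1, W8 heart replicate 2, the 2 P1 hearts and the E14 heart. The values are as deposited and not centred, so they carry the shift of -0.29 (log2) between W8 and P1 heart at the median body. Asb2, Plxnb2, Jup, Ppara and Acacb lie lower in both W8 hearts than in both P1 hearts, Myo3a and Myh6 lie higher, and at Ttn W8 heart replicate 2 alone lies far below (0.510 FPKM) the other libraries.

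Long bodies hold more reads, so their counting error is smaller. Among the 1977 bodies of 100 kb or more, 2 passed the test with all libraries (0.101%), Vstm2a higher and Gm12824 lower in W8 heart. Vstm2a rests on few reads, 184 and 6 in W8 heart, against 18 and 14 in P1 heart. Gm12824 had 948 and 29 reads in W8 heart, against 343 and 270 in P1 heart. With W8 heart replicate 1 alone against the P1 hearts, a choice made after seeing the data, 15 passed as higher (0.759%) and 9 as lower (0.455%) in W8 heart. In this fit W8 heart is 1 library, assumed to vary like the other groups, so the spread between adult hearts is not measured. The higher ones had low P1 levels of 0.0229 to 0.268 FPKM. They were led by Myo3a (1.54, log2), Vstm2a (0.75), 2210408I21Rik (0.71) and Tmem132d (0.66), followed by the adhesion genes Nrcam (0.59), Cntnap4 (0.56) and Ntng1 (0.51) and the ephrin receptor gene Epha5 (0.57). None of these higher ones is on the neuronal list, but that list holds only 21 of the 7753 bodies tested. Its absence therefore does not show whether they are neuronal genes. The other higher ones were Kcnh8, Bai3, Tmprss15, Atp13a5, Rorb, Mei4 and Ralyl, with differences of 0.46 to 0.58. W8 heart replicate 2 lay above the P1 mean at all of the higher ones. Its values there rest on few reads, from 4 at Tmprss15, 6 at Vstm2a and 7 at Kcnh8 to 99 at 2210408I21Rik. Quantile normalization gives every library the same distribution. With it, over bodies of 20 kb or more, each difference of W8 heart replicate 1 was smaller. The higher ones then lay between 0.09 (Kcnh8) and 1.12 (Myo3a), with Vstm2a at 0.41.

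The 9 lower ones had P1 levels of 1.00 to 2.19 FPKM. Acacb, the acetyl-CoA carboxylase of the mitochondrial surface whose product malonyl-CoA restrains fatty acid entry, lay lower by -0.57 (log2). Vcl, which encodes vinculin of the costamere and disc, lay lower by -0.42, as did Mprip, a regulator of myosin phosphatase, and Myo18a, an unconventional myosin, each by -0.42. Lats2, a kinase of the Hippo pathway, lay lower by -0.43, and Gm12824 (-0.70), Fig4 (-0.45), Tec (-0.43) and Zeb1 (-0.38) completed the set. W8 heart replicate 2 lay above the P1 mean at Fig4 (1.01), Mprip (0.27) and Lats2 (0.03), and below it at the other lower ones. Under quantile normalization the lower ones in W8 heart replicate 1 lay between -0.59 (Gm12824) and -0.19 (Myo18a). Low bodies above and high bodies below their P1 level was also the pattern of the whole comparison, given below.

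Genes of fatty acid oxidation leaned lower in adult heart, although none passed among bodies of 20 kb or more, and Acacb passed only in the comparison of long bodies without W8 heart replicate 2. At an unadjusted p under 0.05, 0 of 18 fatty acid oxidation genes lay higher and 5 lower (27.8%, against 7.31% of all bodies). W8 heart replicate 1 lay below both P1 hearts at 13 of the 18 (72.2%, against 31.5% of all bodies). It lay above both at 1 (5.56%, against 35.2%). Both W8 hearts lay below both P1 hearts at 8 (44.4%, against 18.2%). The list median of W8 heart replicate 1 minus the P1 mean was -0.20, against 0.01 over all bodies, and it was -0.30 for W8 heart replicate 2, against 0.03 over all bodies.

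Ppara, a member of the nuclear receptor list, encodes the receptor that turns on fatty acid oxidation genes. It had 0.557 and 0.656 FPKM in W8 heart, against 1.20 and 1.12 FPKM in P1 heart (chr15:85568206-85633249, mm9). Both W8 hearts lay below both P1 hearts, with a difference of -0.55 ± 0.14 (limma adjusted p = 0.244) and of -0.68 with W8 heart replicate 1 alone (limma adjusted p = 0.340). The E14 heart had 0.961 FPKM, between the adult and newborn values before centring. By rank of the centred level among the 7753 bodies, Ppara stood at 1682 in the E14 heart, close to the P1 hearts (1652 and 1663). It stood at 4031 and 3130 in the W8 hearts. Cpt1a, the carnitine palmitoyltransferase that admits fatty acids to mitochondria, had 0.744 and 0.605 FPKM in W8 heart, against 1.43 and 1.04 FPKM in P1 heart, with a difference of -0.49 ± 0.15 (limma adjusted p = 0.279). Acacb had 0.862 and 0.450 FPKM in W8 heart, against 1.57 and 1.50 FPKM in P1 heart, a difference of -0.89 ± 0.22. At all 3 genes both W8 hearts lay below both P1 hearts. The fatty acid transporter gene Cd36 had 0.361 and 0.174 FPKM in W8 heart, against 0.664 and 0.569 FPKM in P1 heart. Hadha, a subunit of the mitochondrial trifunctional protein, had 0.716 and 1.05 FPKM in W8 heart, against 1.46 and 1.24 FPKM in P1 heart, and its groups overlap. The members of largest difference were the electron transfer genes Etfdh (-1.35) and Etfa (-1.04), both of which rest on W8 heart replicate 2, since W8 heart replicate 1 differed by only -0.15 and -0.24. Slc25a20, the carnitine-acylcarnitine carrier, lay above both P1 hearts in W8 heart replicate 1, by 0.17.

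Respiratory and mitochondrial genes leaned the same way. W8 heart replicate 1 lay below both P1 hearts at 10 of 14 (71.4%, against 31.5% of all bodies) and above both at 0 (0%), with a median of -0.23. W8 heart replicate 2 had a median of -0.18 with values on both sides, and both W8 hearts lay below both P1 hearts at 4 of 14 (28.6%, against 18.2% of all bodies). Mfn2, a fusion protein of the outer mitochondrial membrane, had 0.957 and 1.58 FPKM in W8 heart, against 2.13 and 1.46 FPKM in P1 heart, and its groups overlap. The largest fitted differences were those of the complex subunits Ndufa9 (-0.64 ± 0.23) and Uqcrc2 (-0.60 ± 0.28).

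Of 13 glycolysis and glucose use genes, 3 lay lower (23.1%, against 7.31% of all bodies) and 0 higher at an unadjusted p under 0.05. The medians were -0.15 and -0.34 for the 2 W8 hearts. Gpi1, glucose-6-phosphate isomerase, had 1.07 and 0.697 FPKM in W8 heart, against 1.86 and 1.83 FPKM in P1 heart, and Pygb, a glycogen phosphorylase, had 1.06 and 0.357 FPKM in W8 heart, against 1.68 and 1.54 FPKM in P1 heart. Genes of both fuels thus lay on the lower side. Of 15 insulin, IGF and mTOR signalling genes, 3 lay lower (20%, against 7.31%) and 0 higher at an unadjusted p under 0.05. Their medians were -0.14 and -0.05. The kinase gene Akt2 differed by -0.53 ± 0.21. Igf1 differed by -0.64 ± 0.38 through W8 heart replicate 2, since W8 heart replicate 1 lay at 0.04.

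The start regions of Ppara and Acacb are shown because Ppara is the receptor that controls the fatty acid oxidation genes and Acacb the member of that list that passed among long bodies, and because 5hmC sits mainly at CG pairs. RefSeq promoters (GRCm38.p6) run from 250 bases before to 50 bases after the start, and each CG pair is in capitals. Ppara lies at chr15:85735526-85735825 (plus strand) and holds 30 CG, Acacb at chr5:114165268-114165567 (plus strand) and holds 10. CG reads the same on both strands. Over 32851 such promoters the median was 7 CG, 94.6% held at least 1, 43.5% held 10 or more and 11.7% held 30 or more.
Ppara: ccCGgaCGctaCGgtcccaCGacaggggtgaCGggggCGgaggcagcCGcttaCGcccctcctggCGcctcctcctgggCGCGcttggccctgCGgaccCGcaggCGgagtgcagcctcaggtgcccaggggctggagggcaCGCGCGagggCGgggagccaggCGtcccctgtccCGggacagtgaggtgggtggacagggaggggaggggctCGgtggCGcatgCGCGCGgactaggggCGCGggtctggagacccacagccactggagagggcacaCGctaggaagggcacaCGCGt
Acacb: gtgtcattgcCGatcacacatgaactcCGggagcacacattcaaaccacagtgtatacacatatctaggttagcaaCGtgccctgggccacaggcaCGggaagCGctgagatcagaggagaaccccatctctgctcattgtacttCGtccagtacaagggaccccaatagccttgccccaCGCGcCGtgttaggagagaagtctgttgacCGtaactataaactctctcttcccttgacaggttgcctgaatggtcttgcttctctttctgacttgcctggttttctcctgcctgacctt
In the 4000 bp promoter windows of the tables, Ppara had 0.554 and 1.53 FPKM in W8 heart, against 2.16 and 1.15 FPKM in P1 heart, and Acacb had 1.58 and 0.778 FPKM in W8 heart, against 1.37 and 0.692 FPKM in P1 heart. These FPKM groups overlap at both windows. A single read in such a window was worth 0.767 FPKM in W8 heart replicate 2, so that its promoter values rest on 1 or 2 reads.

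Contractile genes gave different pictures in the 2 W8 hearts. At an unadjusted p under 0.05, 1 of 20 sarcomere genes lay higher (5%, against 9.44% of all bodies) and 6 lower (30%, against 7.31%). The median was -0.11 for W8 heart replicate 1 and -0.68 for W8 heart replicate 2. W8 heart replicate 1 lay above both P1 hearts at 5 (25%, against 35.2%) and between them at 5. It lay below both at 10 (50%, against 31.5%). Ttn, the giant spring protein, had 1.41 and 0.510 FPKM in W8 heart, against 1.78 and 1.80 FPKM in P1 heart. W8 heart replicate 1 was within 0.04 (log2, below) of the P1 mean at Ttn after centring and W8 heart replicate 2 differed by -1.34, so the fitted -0.69 ± 0.34 rests on the shallow library. Flnc, filamin C, had 1.12 and 0.801 FPKM in W8 heart, against 2.41 and 1.55 FPKM in P1 heart, and Myh7b, a myosin heavy chain, had 1.65 and 1.45 FPKM in W8 heart, against 2.75 and 2.88 FPKM in P1 heart. At these 2 genes both W8 hearts lay below both P1 hearts.

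Myh6, the alpha myosin heavy chain of the adult mouse ventricle, was the sarcomere gene on the higher side. It had 3.11 and 7.83 FPKM in W8 heart, against 2.32 and 2.52 FPKM in P1 heart (chr14:55560758-55583444, mm9). The mean was 5.47 ± 3.34 FPKM in W8 heart and 2.42 ± 0.142 FPKM in P1 heart (SD, n = 2 each). The groups did not overlap, the difference was 1.32 ± 0.36 (limma adjusted p = 0.244), and it was 0.64 for W8 heart replicate 1 and 2.00 for W8 heart replicate 2. Among the 7753 bodies Myh6 ranked 1st in both W8 hearts and in the E14 heart, which had 11.5 FPKM, and at places 102 and 40 in the P1 hearts. It also stood at place 16 in the E14 liver and at 3361 and 4340 in the W8 livers. The single-end heart libraries of both ages were thus above the paired-end ones, and the part of the read format was not tested. Myh7, the fetal beta chain, whose neighbouring sequence is similar, had 1.51 and 1.68 FPKM in W8 heart, against 1.68 and 1.13 FPKM in P1 heart. Its FPKM groups overlap, both W8 hearts lie higher after centring, and the difference was 0.50 ± 0.34. Reads of these paralogs may be split between them, so both are uncertain.

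Of the troponin I isoforms, Tnni1, the fetal form, had 0.999 and 0.151 FPKM in W8 heart, against 1.22 and 1.48 FPKM in P1 heart. The difference of -1.22 ± 0.56 shrinks to -0.12 with W8 heart replicate 1 alone. Tnni3, the adult form with a body of only 2.2 kb that was read in the fit of all lengths, had 2.17 and 1.40 FPKM in W8 heart, against 1.77 and 2.49 FPKM in P1 heart, and its groups overlap at 0.07 ± 0.45. A difference in either troponin I isoform beyond the spread was thus not detectable at this depth. Pln, phospholamban, is also short and had 1.72 and 3.89 FPKM in W8 heart, against 0.746 and 0.584 FPKM in P1 heart. It had 7.07 FPKM in the E14 heart, an order of the libraries like that of Myh6.

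The Myh6 promoter is shown because its body ranked 1st in both W8 hearts while its start is poor in CG. It lies at chr14:54966558-54966857 (minus strand, GRCm38.p6, RefSeq) and holds 2 CG, in capitals, and 23.3% of the 32851 promoters hold 2 or fewer.
Myh6: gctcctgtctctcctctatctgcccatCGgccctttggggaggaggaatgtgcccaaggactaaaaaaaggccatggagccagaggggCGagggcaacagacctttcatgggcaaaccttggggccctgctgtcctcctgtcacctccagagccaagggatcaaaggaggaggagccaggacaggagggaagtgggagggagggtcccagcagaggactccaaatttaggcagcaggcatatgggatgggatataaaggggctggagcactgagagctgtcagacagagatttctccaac
Its promoter window had 0.827 and 0 FPKM in W8 heart, against 0.196 and 0.461 FPKM in P1 heart, and the groups overlap.

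Calcium-cycling genes lay lower mainly through W8 heart replicate 2. Of 18 tested, 0 lay higher and 4 lower (22.2%, against 7.31% of all bodies) at an unadjusted p under 0.05. The median was -0.12 for W8 heart replicate 1 and -0.79 for W8 heart replicate 2. Ryr2, the calcium release channel, had 0.694 and 0.355 FPKM in W8 heart, against 1.01 and 1.12 FPKM in P1 heart, a difference of -0.68 ± 0.24 and of -0.28 with W8 heart replicate 1 alone. Casq2, the calcium store protein of the sarcoplasmic reticulum, had 0.840 and 0.477 FPKM in W8 heart, against 1.65 and 1.41 FPKM in P1 heart, a difference of -0.86 ± 0.21. Both genes had non-overlapping groups. Slc8a1, the sodium-calcium exchanger, differed by -0.77 ± 0.34, and by -0.13 with W8 heart replicate 1 alone. Atp2a2, the calcium pump of the sarcoplasmic reticulum, had 1.22 and 0.718 FPKM in W8 heart, against 1.50 and 1.78 FPKM in P1 heart, and with W8 heart replicate 1 alone the difference was -0.11, inside the spread of the P1 hearts.

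Of 14 ion channel genes, 0 lay higher and 4 lower (28.6%, against 7.31% of all bodies) at an unadjusted p under 0.05. The medians were -0.15 and -0.53. Kcnj12, an inward rectifier, had 0.974 and 0.655 FPKM in W8 heart, against 1.50 and 1.80 FPKM in P1 heart. Both W8 hearts lay below both P1 hearts at this gene.

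The intercalated disc and costamere list holds genes of the junctions and attachment sites of heart muscle cells. Of 22 tested, 0 lay higher and 8 lower at an unadjusted p under 0.05 (36.4%, against 7.31% of all bodies), W8 heart replicate 1 lay below both P1 hearts at 13 (59.1%, against 31.5%) and above both at 6, and the medians were -0.12 and -0.65. Besides Jup, the laminin receptor subunit Itga7 had 0.590 and 0.269 FPKM in W8 heart, against 1.43 and 1.03 FPKM in P1 heart, a difference of -1.12 ± 0.29. Dsp, desmoplakin, had 1.08 and 0.609 FPKM in W8 heart, against 1.86 and 1.63 FPKM in P1 heart, and Vcl had 0.732 and 0.507 FPKM in W8 heart, against 1.24 and 1.12 FPKM in P1 heart. All 3 had non-overlapping groups. The long members Dmd (dystrophin), Lama2 (laminin alpha 2) and Sgcd (delta-sarcoglycan) lay between 0.07 and 0.18 above the P1 mean in W8 heart replicate 1, so the list did not move as one.

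**Figure D3:**
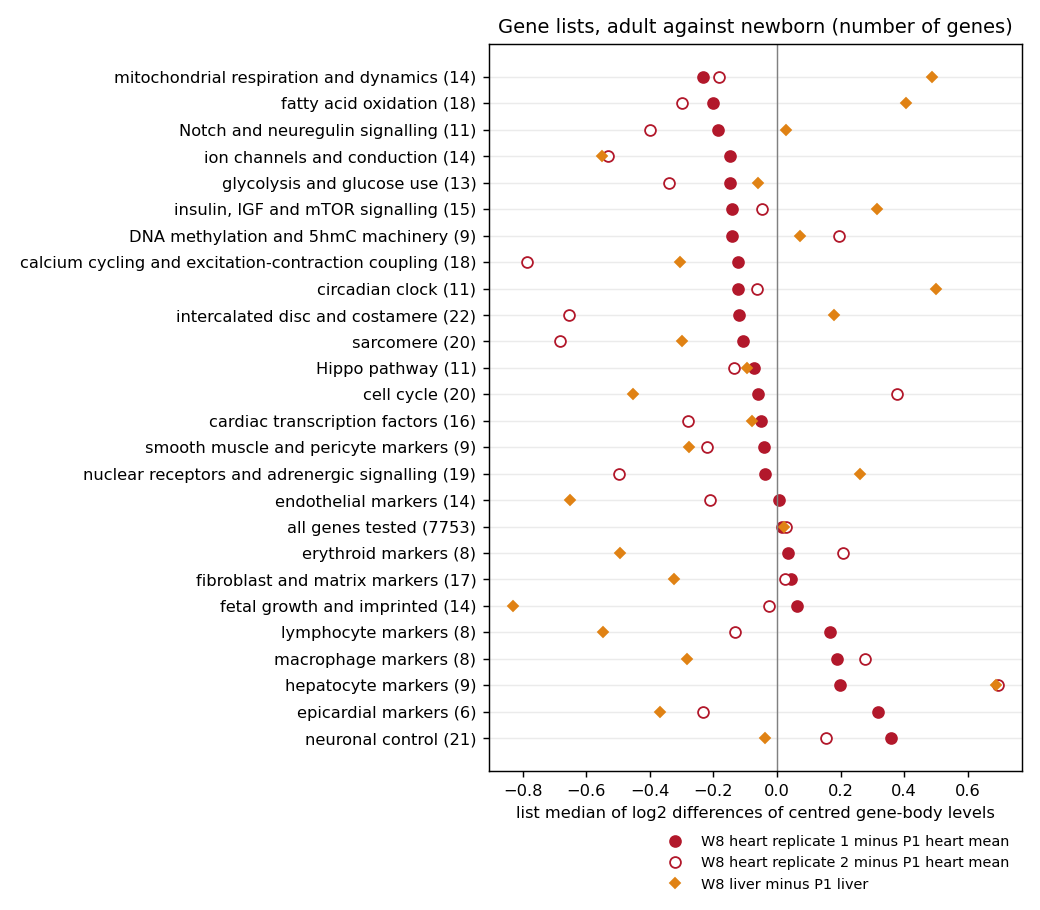
Median W8 minus P1 difference (log2) of each gene list with 5 or more genes tested, for W8 heart replicate 1, W8 heart replicate 2 and liver. For W8 heart replicate 1 the epicardial (0.32) and neuronal (0.36) lists lie highest and the other lists between -0.23 and 0.20, while W8 heart replicate 2 spreads from -0.79 to 0.70.

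Cardiac transcription factor genes differed little in W8 heart replicate 1. Of 16, 0 lay higher and 3 lower at an unadjusted p under 0.05, the medians were -0.05 and -0.28, and both W8 hearts lay below both P1 hearts at 9 (56.2%, against 18.2% of all bodies). Gata4 had 1.41 and 1.31 FPKM in W8 heart, against 1.70 and 1.73 FPKM in P1 heart, and after centring the difference was -0.01 ± 0.12, with a sign that turned under 4 other scalings or filters. Tbx5 had 0.926 and 0.569 FPKM in W8 heart, against 1.34 and 1.46 FPKM in P1 heart, a difference of -0.57 ± 0.22. Tbx20 (-1.08 ± 0.41) and Hopx (-0.99 ± 0.47) had the largest differences, but with W8 heart replicate 1 alone they differed by -0.29 and -0.07. Of 19 nuclear receptor and adrenergic genes, 1 lay higher and 3 lower at an unadjusted p under 0.05, with medians of -0.04 and -0.50. The higher one was Thrb, the thyroid hormone receptor beta, at 0.213 and 0.287 FPKM in W8 heart, against 0.193 and 0.157 FPKM in P1 heart (0.68 ± 0.17). Adcy5, an adenylyl cyclase of heart muscle, differed by -0.60 ± 0.25.

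Cell cycle genes gave different pictures in the 2 W8 hearts. Of 20, 4 lay higher (20%, against 9.44% of all bodies) and 0 lower at an unadjusted p under 0.05. The medians were -0.06 for W8 heart replicate 1 and 0.38 for W8 heart replicate 2. Of the 20, W8 heart replicate 1 lay below both P1 hearts at 8 (40%, against 31.5% of all bodies) and above both at 5 (25%, against 35.2%). Bub1, a spindle checkpoint kinase, had 0.139 and 0.535 FPKM in W8 heart, against 0.109 and 0.0321 FPKM in P1 heart, a difference of 1.67 ± 0.45. With W8 heart replicate 1 alone the difference of Bub1 was 0.89. Its level in P1 heart replicate 2 lay below the 0.0746 FPKM added before the log, so the size of its difference is uncertain. Cenpf, a kinetochore protein, had 0.522 and 1.01 FPKM in W8 heart, against 0.656 and 0.466 FPKM in P1 heart, so that its FPKM groups overlap, and the difference was 0.67 ± 0.29. Mki67, the proliferation marker, had 0.761 and 0.745 FPKM in W8 heart, against 0.990 and 1.39 FPKM in P1 heart, with a difference of -0.28 ± 0.19.

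Fetal growth and imprinted genes lay close to their newborn level in heart. Of 14, 2 lay higher and 0 lower at an unadjusted p under 0.05, with medians of 0.06 and -0.02, against -0.83 in liver. Igf2bp1, an RNA-binding protein of fetal tissues, had 1.26 and 1.51 FPKM in W8 heart, against 1.46 and 1.12 FPKM in P1 heart, a difference of 0.41 ± 0.17. Hmga2, a chromatin protein of growing tissues, had 1.36 and 1.06 FPKM in W8 heart, against 1.44 and 1.47 FPKM in P1 heart, a difference of 0.04 ± 0.14 whose sign turned with no centring. Igf2bp3 differed by 0.11 ± 0.15 and Lin28b by 0.05 ± 0.15, and their signs turned with no centring too. Of these 4 only Igf2bp1 had an unadjusted p under 0.05, and its FPKM groups overlap. Snrpn, an imprinted gene at a low level, differed by 0.74 ± 0.20 and Plagl1 by -0.54 ± 0.24.

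The DNA methylation and 5hmC machinery gave 0 higher and 1 lower of 9 at an unadjusted p under 0.05, with medians of -0.14 and 0.20. The lower one was Dnmt3a, a de novo methyltransferase, at 1.23 and 0.932 FPKM in W8 heart, against 1.94 and 1.58 FPKM in P1 heart (-0.37 ± 0.15), and the methyl-CG reader Mbd2 differed by -0.33 ± 0.18. Tet2, which makes 5hmC, had 0.590 and 0.662 FPKM in W8 heart, against 0.828 and 0.808 FPKM in P1 heart, and after centring the difference was -0.04 ± 0.14. The circadian clock list had 0 of 11 at an unadjusted p under 0.05 in either direction, with medians of -0.12 and -0.06, led by Hlf (-0.37 ± 0.20) and Cry2 (-0.24 ± 0.14). The Hippo list had 0 higher and 2 lower of 11, Tead4 (-0.54 ± 0.21) and Wwtr1 (-0.52 ± 0.20), with medians of -0.07 and -0.14. The Notch and neuregulin list had 0 higher and 3 lower of 11 with medians of -0.19 and -0.40, and its largest differences were those of Notch4 (-1.01 ± 0.44) and Erbb3 (-0.63 ± 0.31).

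Markers of the other cells of a heart lay near the P1 level, apart from the epicardial list in W8 heart replicate 1. Endothelial genes had 0 of 14 at an unadjusted p under 0.05 and medians of 0.01 and -0.21, with Flt1 and Nfatc1 each at -0.31. Smooth muscle and pericyte genes had 0 of 9 and medians of -0.04 and -0.22, with Cspg4 at -0.46 and Rgs5 at 0.41. Fibroblast and matrix genes had 2 higher and 1 lower of 17 and medians of 0.04 and 0.02. Col3a1, a fibrillar collagen of connective tissue, had 0.340 and 0.420 FPKM in W8 heart, against 0.260 and 0.229 FPKM in P1 heart (0.81 ± 0.19), whereas Col6a2 lay at -1.07 ± 0.34, or -0.45 with W8 heart replicate 1 alone. Epicardial genes had 0 of 6 at an unadjusted p under 0.05. Yet W8 heart replicate 1 lay above both P1 hearts at 5 of them (83.3%, against 35.2% of all bodies). Its median was 0.32, and that of W8 heart replicate 2 was -0.23. Tbx18 had 0.686 and 0.232 FPKM in W8 heart, against 0.593 and 0.627 FPKM in P1 heart, and Aldh1a2 had 0.470 and 0.430 FPKM in W8 heart, against 0.550 and 0.388 FPKM in P1 heart. At Tbx18 the P1 hearts lay between the 2 W8 hearts after centring, and at Aldh1a2 both W8 hearts lay above both P1 hearts.

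Of the blood cell lists, macrophage genes had 4 higher (50%, against 9.44% of all bodies) and 0 lower of 8 at an unadjusted p under 0.05, with medians of 0.19 and 0.28. Under quantile normalization, which gives every library the same distribution, the median of W8 heart replicate 1 was 0.04. Emr1, which encodes the F4/80 antigen, had 0.0469 and 0.0991 FPKM in W8 heart, against 0.0256 and 0.0225 FPKM in P1 heart (0.87 ± 0.21). At Emr1 both P1 hearts and W8 heart replicate 1 lay below the 0.0746 FPKM added before the log, so its difference is uncertain. Sfpi1, the PU.1 factor of myeloid cells, had 0.791 and 1.33 FPKM in W8 heart, against 0.943 and 0.738 FPKM in P1 heart (0.59 ± 0.23). Lymphocyte genes had 1 higher and 0 lower of 8 with medians of 0.17 and -0.13, Ikzf1 at 0.95 ± 0.35 and Ebf1 at -0.38 ± 0.28. Erythroid genes had 1 higher and 1 lower of 8 with medians of 0.03 and 0.21, Alas2, of haem synthesis, at 1.17 ± 0.39 and the transferrin receptor gene Tfrc at -0.60 ± 0.24. The adipocyte list had 1 body of 20 kb or more, Pparg, at -0.03 ± 0.14. Hepatocyte genes had 4 higher (44.4%, against 9.44% of all bodies) and 0 lower of 9. Their median was 0.20 for W8 heart replicate 1 and 0.70 for W8 heart replicate 2. Apob, the protein of secreted liver lipoproteins, had 0.196 and 0.660 FPKM in W8 heart, against 0.211 and 0.198 FPKM in P1 heart. At this gene W8 heart replicate 2 stood far above the other 3 hearts, and its part in the list results was not tested beyond the values given without it.

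Genes known mainly from neurons served as a control. Heart muscle also uses some of them, such as the splicing factor gene Rbfox1, and whole hearts hold nerves. Of 21, 6 lay higher (28.6%, against 9.44% of all bodies) and 0 lower at an unadjusted p under 0.05. W8 heart replicate 1 lay above both P1 hearts at 17 (81%, against 35.2% of all bodies). Its median was 0.36, and that of W8 heart replicate 2 was 0.16. Mtap2, a microtubule protein of dendrites, had 0.248 and 0.242 FPKM in W8 heart, against 0.201 and 0.209 FPKM in P1 heart (0.50 ± 0.14), and Camk2a differed by -0.49 ± 0.23. Under quantile normalization the list median of W8 heart replicate 1 was 0.08.

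The neuronal shift goes with a dependence on level that runs through the whole comparison. Bodies were placed in 5 classes by their level in the E14 heart, a library outside the contrast. From the lowest to the highest class, the median of W8 heart replicate 1 minus the P1 mean was 0.25, 0.086, 0.0086, -0.059 and -0.108, and that of W8 heart replicate 2 was 0.24, 0.093, 0.072, -0.065 and -0.163. In liver, with classes by the E14 liver level, the medians were 0.0013, 0.012, 0.072, 0.058 and 0.023 for W8 liver replicate 1 minus the P1 liver mean and -0.020, 0.019, 0.062, 0.029 and -0.032 for W8 liver replicate 2. Among bodies of 100 kb or more, the spread of levels (SD across genes, log2) was 0.822 and 0.834 in the W8 hearts, against 0.957 and 0.953 in the P1 hearts and 0.933 in the E14 heart. Over these long bodies, levels in W8 heart thus lay closer together than in P1 heart. Over all 7753 bodies this held for W8 heart replicate 1 only. There the SD was 0.762 in W8 heart replicate 1 and 0.942 in W8 heart replicate 2, against 0.905 and 0.906 in the P1 hearts. By the class medians, low bodies lay above and high bodies below their P1 level in both W8 hearts. After quantile normalization the 5 medians of W8 heart replicate 1 lay between -0.010 and 0.024, and those of W8 liver replicate 1 were 0.078, 0.098, 0.065, -0.017 and -0.124. The fatty acid oxidation and mitochondrial medians of W8 heart replicate 1 were still -0.23 and -0.24 under that normalization, that of the disc list was -0.13 and that of the sarcomere list was 0.01.

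**Figure D4:**
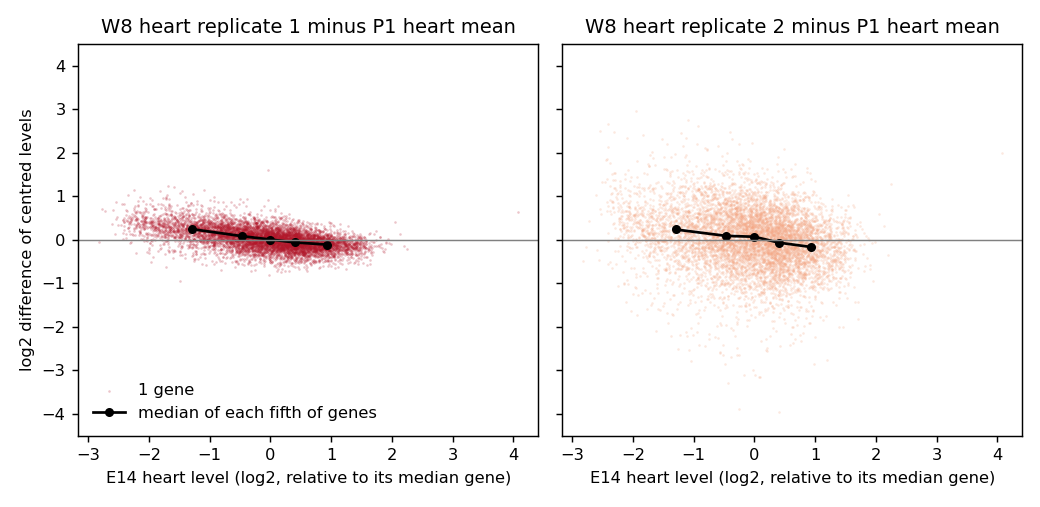
Difference of W8 heart replicate 1 (left) and W8 heart replicate 2 (right) from the P1 heart mean (log2) against the level in the E14 heart, for 7753 gene bodies, with the median of each of 5 level classes. The medians descend from 0.25 to -0.108 for replicate 1 and from 0.24 to -0.163 for replicate 2, and the scatter of replicate 2 is far wider.

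The same ages were compared in liver, and the heart difference was set against the liver difference in an interaction test. It passed at 373 bodies where W8 minus P1 was higher in heart than in liver (4.81%) and at 215 where it was lower (2.77%). Without W8 heart replicate 2 it passed at 1020 (13.2%) and 682 (8.8%). In liver itself 586 bodies rose (7.56%) and 882 fell (11.4%) at W8. The calls fell to 79 and 40 without P1 heart replicate 1, and to 0 and 0 without P1 heart replicate 2 or without any 1 of the 4 W8 and P1 liver libraries. They were 1623 and 1526 without W8 heart replicate 1. In each tissue the W8 libraries were single-end and the P1 libraries paired-end.

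Against the 4.81% of all bodies that passed in the higher direction, several lists had larger shares. Igf2bp1, Hmga2, Lin28b, Meg3 and Sgce passed the interaction (5 of 14 fetal and imprinted genes), all in the higher direction. In liver they fell by 1.60, 1.20, 0.97, 1.63 and 0.98 on the log2 scale, and in heart their differences were 0.41, 0.04, 0.05, 0.16 and 0.01. The largest interaction in this direction was that of Ikzf1, a lymphoid transcription factor, at 3.05. It had 0.285 and 0.758 FPKM in W8 heart, against 0.260 and 0.294 FPKM in P1 heart, and in liver 0.121 and 0.144 FPKM at W8, against 1.08 and 0.879 FPKM at P1. Rspo1 (2.55), Fam105a (2.37), Jakmip1 (2.30) and Itprip (2.29) followed. Itprip had 1.84 and 2.02 FPKM in W8 heart, against 2.32 and 2.03 FPKM in P1 heart, and in liver 0.411 and 0.304 FPKM at W8, against 2.68 and 1.75 FPKM at P1. The erythroid genes Ank1, Bcl11a and Spnb1 (3 of 8) and the macrophage genes Ptprc and Sfpi1 (2 of 8) passed in the same direction. So did 5 of 17 fibroblast genes (Col3a1, Col5a1, Sparc, Tgfbi and Tnc), 4 of 14 endothelial genes (Cdh5, Erg, Fli1 and Vwf), the hexokinase genes Hk1 and Hk2 (2 of 13 glycolysis genes), and 1 gene each of other lists, Racgap1 of the cell cycle list, the potassium channel gene Kcnh2, the pericyte gene Pdgfrb and Mtap2.

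In the lower direction, in which 2.77% of all bodies passed, were 2 of 18 fatty acid oxidation genes (Cpt1a and Acacb) and 3 of 22 disc genes. Ppara differed by -0.55 in heart and rose by 0.55 in liver (interaction -1.10, limma adjusted p = 0.021), Cpt1a differed by -0.49 in heart and rose by 0.72 in liver (interaction -1.21, limma adjusted p = 0.020), and Acacb differed by -0.89 in heart, with 0.68 in liver (interaction -1.57, limma adjusted p = 0.026). Itga7 had one of the 5 largest interactions in this direction, -2.65, or -2.20 without W8 heart replicate 2, and Jup and Vcl passed as well. Klf9, Adra1b and Nr3c2 passed beside Ppara (4 of 19 nuclear receptor and adrenergic genes), and so did Mfn1, the clock gene Nr1d2, and the signalling genes Egfr, Jag1 and Yap1. Igf1 passed at -2.18 and Igf1r in the opposite direction at 0.99. Gata6 passed at -0.95 and Mef2c at 1.15. The largest values, Mug1 (-3.30), Cyp2j5 (-2.84), Ces1d (-2.73) and Ces1e (-2.57), belong to liver gene families of close copies among which reads may be split, and they are uncertain. None of the sarcomere (20), calcium (18), hepatocyte (9), epicardial (6) or DNA methylation (9) genes passed.

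**Figure D5:**
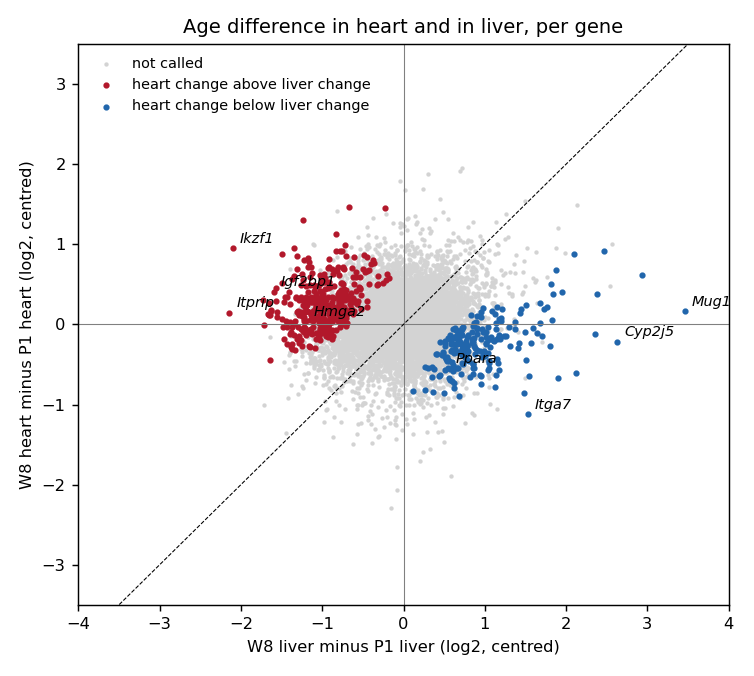
W8 minus P1 difference (log2) of each gene body in heart (vertical axis) against liver (horizontal axis), with bodies that passed the interaction coloured by direction. The liver differences spread more widely than the heart ones, and Ikzf1, Igf2bp1, Hmga2 and Itprip lie at falling liver values with heart values near 0 or above.

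The E14 heart was read in the same format as the W8 hearts. Comparisons of W8 heart with it and with P1 heart share the W8 libraries, so counts over genes chosen by their W8 values are no independent check. Of the 12 bodies of smallest p in the higher direction, W8 heart replicate 1 lay above the E14 heart at 8 (66.7%, against 51.2% of all bodies). Of the 12 in the lower direction, it lay below the E14 heart at 10 (83.3%, against 48.8%). Some single genes went the other way. Myo3a and Myh6, which lay above P1 in both W8 hearts, were highest in the E14 heart, and Asb2, which lay below P1 in both, was lowest there.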

How the data were processed

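Each library was a pull-down of 5hmC-bearing DNA, and no input library was used here. The authors deposited, per the file headers, 1 table per library with an FPKM value for each gene body (GB) and each promoter window of 4000 bp. Alignment used Bowtie2 and mm9, per the submitters' processing notes; the sources used here do not state the counter or the filters. Low promoter FPKM values were whole multiples of what 1 read is worth in every library (100% within 0.01 of a read; in the single-end libraries sums of 2 close step sizes, within 0.02), which gave the read numbers quoted, approximate where there were 2 steps. Intervals and coefficients of variation from reads cover counting error only.

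Of 13581 genes, 23 had no coordinates and 9 a body of length 0 or less. Bodies of 20 kb or more (7784) with a mean of at least 0.0746 FPKM were kept (7753). The analysis took log2(FPKM + 0.0746), centred each library on its median, and fitted 7 group means over 12 libraries with limma 3.58.1 in R 4.3.3 (eBayes with a trend, 5 residual degrees of freedom), with Benjamini-Hochberg adjustment over all bodies. Differences on this scale understate the change of low bodies. Values with W8 heart replicate 1 alone come from the same fit without W8 heart replicate 2. That fit assumes that W8 heart replicate 1 varies like the other groups. The interaction is W8 minus P1 in heart minus the same in liver. The pipeline was tested on simulated data. Tables and plots used Python 3.11.15, pandas 2.3.3 and matplotlib 3.10.9. Of the genes, 13449 matched a RefSeq accession, used for chromosome names.

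As fewer than 12 passed in each direction, the 12 bodies of smallest p in that direction are named, whether or not their groups overlap. Also named are a fixed set of heart, fetal and TET genes (Cpt1b, Tet1 and Tet3 were not analysed here). So are the 5 largest interactions each way and the 2 members of largest difference in each list. Other list members named are examples chosen after their values were seen. Some genes that the rule names are not reported here. The comparison, the 26 lists (sarcomere, calcium cycling, ion channels, intercalated disc and costamere, cardiac transcription factors, nuclear receptors and adrenergic signalling, fatty acid oxidation, glycolysis, mitochondria, cell cycle, fetal growth and imprinted, insulin signalling, Hippo, Notch and neuregulin, DNA methylation, circadian clock and 10 marker lists) were chosen with earlier results of these data known. Alternatives covered the pseudocount, the filter, body length, centring, weights, the groups fitted, the replicate block and each library left out.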

Additional observations from a re-analysis of the deposited data

Results flagged for a closer look

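These results stood out because the W8 minus P1 difference in heart and the same difference in liver were not alike by the test of that difference itself. It passed at 373 bodies in the higher and 215 in the lower direction. In the lower direction (log2, heart minus liver) were Mug1 (-3.30), Cyp2j5 (-2.84), Ces1d (-2.73), Itga7 (-2.65), Ces1e (-2.57), Igf1 (-2.18), Cyb5b (-1.46), Tppp (-1.36), Snw1 (-1.26), Cpt1a (-1.21), Ppara (-1.10), Plxnb2 (-1.09), Jup (-1.09), Hexa (-1.08) and Asb2 (-0.94). In the higher direction were Ikzf1 (3.05), Rspo1 (2.55), Fam105a (2.37), Jakmip1 (2.30), Itprip (2.29), Igf2bp1 (2.00), Mmp20 (1.96), Col3a1 (1.72), A630033H20Rik (1.67), Sfpi1 (1.60), Gabrp (1.35), Hmga2 (1.24), Chat (1.16), Lin28b (1.02) and Mtap2 (0.82). All of these calls were lost when P1 heart replicate 2 or any 1 of the 4 W8 and P1 liver libraries was left out.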

How the results depend on the processing

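For W8 heart against P1 heart, the 0 higher and 0 lower calls became 1 higher with the pseudocount divided by 100 (Cyp2b13), 1 higher (Ppp1r14a) and 1 lower (Pou3f3) with bodies of all lengths, 1 higher and 1 lower with bodies of 100 kb or more, 1 higher with quantile normalization (Myh6) and 1 higher in promoter windows (Adcy6). Myh6 held the top rank in both W8 hearts, and quantile normalization gives such a gene 1 shared value by construction. Bodies of 100 kb or more without W8 heart replicate 2, chosen after seeing the data, gave 15 and 9. Leaving out each library in turn gave 0 to 1696 higher and 0 to 1707 lower; the high ends come without W8 heart replicate 1, where the shallow library stands alone, is assumed to vary like the other groups, and the large spread of the W8 hearts leaves the estimate. For the interaction, 373 higher and 215 lower became 330 lower with the pseudocount at the median body, 1 and 1 with all lengths, 426 lower with 50 kb or more, 247 and 361 with 100 kb or more, 246 higher with no centring (against 214 lower), 239 and 121 with quantile normalization, 76 and 46 with limma arrayWeights, 105 and 60 with the compared groups only, 0 and 0 in promoter windows (770 at an unadjusted p under 0.05), and 747 and 543 with quantile normalization without W8 heart replicate 2, also chosen after seeing the data. Leaving out each library gave 0 to 1623 and 0 to 1526. The cause of these shifts was not tested beyond what is stated. With the replicate number as a block, the heart comparison kept 0 and 0 (1305 at an unadjusted p under 0.05) and the interaction gave 312 and 171; same-numbered W8 and P1 libraries did not deviate together (r = -0.017 in heart and 0.057 in liver across genes), so the numbers do not pair them. Signs turned for genes near 0. Gata4 was 0.0077 with the smaller pseudocount, 0.0056 with all lengths, 0.043 with quantile normalization, 0.170 with that and without W8 heart replicate 2, and -0.073 to 0.052 over libraries left out. Hmga2 was -0.020 with the larger pseudocount, -0.27 with no centring and -0.106 to 0.187 over libraries left out. Igf2bp3 was -0.20 with no centring, -0.155 at 100 kb or more without W8 heart replicate 2, and -0.079 to 0.292 over libraries left out. Lin28b was -0.26 with no centring, -0.027 with quantile normalization, -0.0042 with that and without W8 heart replicate 2, and -0.069 to 0.169 over libraries left out. Tet2 ranged over -0.140 to 0.053, and Atp2a2 and Ttn were 0.032 and 0.116 with quantile normalization without W8 heart replicate 2. Of the other values of named genes, 681 kept direction and side of the threshold, 75 lost the threshold and 44 gained it. Depth limits the comparison through W8 heart replicate 2, whose median body held 10.03 reads.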

Other observations

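Genes on the X chromosome lay slightly higher in W8 heart replicate 1 than in P1 heart, with a median of 0.093 over 247 bodies, whereas the medians of the autosomes lay between -0.030 and 0.056. The Y-linked gene Uty had 0.0825 and 0.189 FPKM in W8 heart, against 0.0321 and 0.0377 FPKM in P1 heart, and Xist, the X-inactivation RNA, had 0.256 and 0.463 FPKM in W8 heart, against 0.432 and 0.646 FPKM in P1 heart. The sex of the mice is not in the labels, and no value here assigns one.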
